A study of Homo sapiens with 8 samples.

Results

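The kinetochore is the protein structure that assembles on the centromere of each chromosome and holds it to spindle microtubules during cell division. Here its genes, and those of the checkpoint that watches over it, were followed as a set of 44, taken by gene symbol out of the 28265 genes counted in every library, and all 44 were found. They fall into 11 groups by role: CENP-A and its deposition (4 genes), the inner kinetochore network (13), the outer proteins CENPE and CENPF (2), the NDC80 complex (4), the MIS12 complex (4), KNL1 and ZWINT (2), the RZZ complex (3), the SKA complex (3), the checkpoint (4), the shugoshins (2) and the chromosomal passenger complex (3). AURKB, BUB1, CDC20 and some other genes of the same pathway are not among the 44 and are counted separately.

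RNA was profiled by factory RNA-Seq, an assay of nascent RNA, in IMR90, a line of human lung fibroblasts used widely as a senescence model. There were 4 conditions with 2 libraries each, all from low-passage cells: control, which the labels call young, 3 days of ICM, 6 days of ICM, and a condition labelled MetaICM. ICM, or inflachromene, is a small molecule that binds the chromatin proteins HMGB1 and HMGB2 and was used at 10 µM. It was used to ask whether such treatment drives cells into a senescence-like arrest. What distinguishes MetaICM, its duration included, is not explained in the sources used here, so its libraries are compared under that label only. The series design calls these cells metaICM-treated, so MetaICM is not taken as untreated. Below, treated libraries are those of 3 and 6 days of ICM only. The labels do not say whether the controls received the solvent, and their library protocol describes poly(A)+ selection of total RNA, so mature mRNA may contribute to the counts.

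At the base of the kinetochore, nucleosomes carrying the histone variant CENP-A mark the centromere, and the inner CENP network binds them through most of the cell cycle. Before mitosis the MIS12, KNL1 and NDC80 complexes are added on top, and NDC80 with the SKA complex grips the microtubule. Kinetochores without a proper attachment recruit checkpoint proteins that hold the cell before anaphase, while the passenger complex corrects faulty attachments. Many of these genes are transcribed mainly in dividing cells, in late S phase and G2, under the DREAM complex and its activating counterpart with MYBL2 and FOXM1. Those complexes reach promoters through a short element, the CHR, often with CCAAT boxes for the factor NF-Y close by.

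Promoter sequence was read for the 35 of the 44 genes that the RefSeq promoter table holds (GRCh38.p14). BIRC5, BUB3, CENPH, CENPL, CENPM, KNL1, KNTC1, MIS18A and TTK were not matched. In windows from 250 bases before to 50 bases after the annotated start, a CHR (TTTGAA or TTCGAA, on either strand) was present in 20 of 35 genes, or 57.1%, against 12.1% of the 11585 promoters of genes tested after 3 days of ICM and 16.4% of all 35116 promoters in the table. A CCAAT box on either strand was present in 23 of 35 (65.7%), against 36.5% of tested genes and 34.6% of all promoters. Both together occurred in 14 of 35 (40.0%), against 5.08% and 6.38%. An E2F-type motif (TTCCCGC or TTGGCGC, either strand) was present in 10 of 35 (28.6%), against 13.8% and 9.23%. The last E2F-type string can overlap a CCAAT box read on the opposite strand.

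The 140 bases before the start of 8 genes are printed 5′ to 3′ on the strand of the gene, with CHR and CCAAT matches in capitals (TTCAAA and ATTGG are the same strings read from the other strand). They were picked after the matches were seen, to set 6 promoters with a CHR in this stretch beside 2 without one from genes called lower at neither time point. The annotated start need not be the start used in IMR90, and a match describes letters only.
CDCA8: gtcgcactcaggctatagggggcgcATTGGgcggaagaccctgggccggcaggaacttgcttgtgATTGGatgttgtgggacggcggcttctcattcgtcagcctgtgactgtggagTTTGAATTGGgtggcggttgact
CENPA: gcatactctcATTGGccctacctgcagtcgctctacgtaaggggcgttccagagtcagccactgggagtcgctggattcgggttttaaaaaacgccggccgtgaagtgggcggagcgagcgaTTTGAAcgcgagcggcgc
INCENP: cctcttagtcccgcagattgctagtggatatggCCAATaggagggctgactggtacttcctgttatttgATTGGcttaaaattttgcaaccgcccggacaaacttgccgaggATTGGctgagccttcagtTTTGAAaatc
ZWINT: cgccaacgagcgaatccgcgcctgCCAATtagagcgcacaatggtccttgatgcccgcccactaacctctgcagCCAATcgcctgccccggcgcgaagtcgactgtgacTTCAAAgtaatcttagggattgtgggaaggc
BUB1B: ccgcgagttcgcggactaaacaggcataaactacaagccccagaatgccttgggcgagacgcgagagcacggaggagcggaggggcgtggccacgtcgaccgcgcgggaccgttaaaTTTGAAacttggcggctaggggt
HJURP: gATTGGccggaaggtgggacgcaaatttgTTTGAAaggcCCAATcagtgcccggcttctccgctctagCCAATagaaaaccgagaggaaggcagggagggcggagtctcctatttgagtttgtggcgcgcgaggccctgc
MIS12: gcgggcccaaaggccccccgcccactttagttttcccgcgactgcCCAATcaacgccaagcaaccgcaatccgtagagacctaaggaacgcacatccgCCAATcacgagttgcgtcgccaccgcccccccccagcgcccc
SKA2: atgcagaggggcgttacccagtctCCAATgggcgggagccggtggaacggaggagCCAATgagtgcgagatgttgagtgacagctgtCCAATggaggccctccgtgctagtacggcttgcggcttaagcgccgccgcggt
These lie in GRCh38.p14 at chr1:37692376-37692515 (plus strand) for CDCA8, chr2:26785916-26786055 (plus) for CENPA, chr11:62123871-62124010 (plus) for INCENP, chr10:56361260-56361399 (minus) for ZWINT, chr15:40160929-40161068 (plus) for BUB1B, chr2:233854536-233854675 (minus) for HJURP, chr17:5486234-5486373 (plus) for MIS12 and chr17:59155187-59155326 (minus) for SKA2. In CDCA8 the CHR and the ATTGG that follows it share a single A. The CHR of BUB1B stood alone, whereas MIS12 and SKA2 held CCAAT boxes and no CHR. Among the 26 matched genes later called lower at both time points a CHR was found in 17 (65.4%), and among the other 9 in 3 (33.3%), namely CENPC, CENPN and ZW10. CCAAT boxes were as frequent in both groups, in 17 of 26 (65.4%) and 6 of 9 (66.7%). E2F-type motifs were in 6 of the 26 (23.1%) and 4 of the 9 (44.4%).

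**Figure D1:**
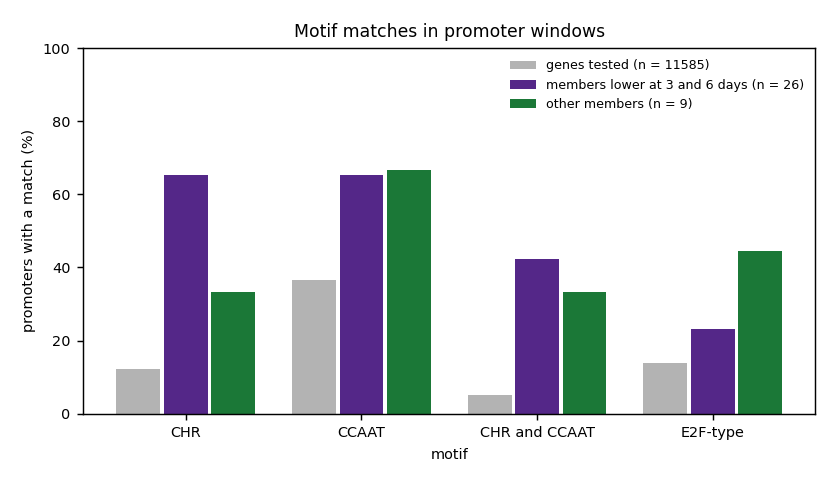
Share of promoters (%, vertical axis) with a CHR, a CCAAT box, both, or an E2F-type motif in the window of 250 bases before to 50 after the annotated start. Grey bars are the 11585 promoters of genes tested after 3 days, purple bars the 26 kinetochore genes lower at 3 and 6 days and green bars the other 9. The CHR is found in 65.4% of purple, 33.3% of green and 12.1% of grey promoters, and the CCAAT box in 65.4%, 66.7% and 36.5%.

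Between 12095123 and 23166405 read pairs were counted per library. Libraries of one condition correlated with each other at r = 0.984 to 0.993 (log2 CPM across genes, a description), in each case more closely than with any library of another condition. All 10 fibroblast markers, collagens and vimentin among them, were above 1 CPM in all 8 libraries and summed to between 12086 and 25539 CPM. Defining markers of epithelial cells (6 genes) summed to at most 2.16 CPM, of endothelial cells (4) to at most 6.66 CPM and of blood cells (4) to at most 2.15 CPM. The labels do not say that replicates came from separate cultures, so p-values measure the spread between these libraries only, which may be technical.

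Levels are CPM, that is exonic read pairs per 1e6 counted, adjusted by TMM factors over all 8 libraries and given as the value in each library. Changes are log2FC ± standard error, and a gene was called higher or lower with an adjusted p under 0.05 in edgeR's quasi-likelihood test (Benjamini-Hochberg over all genes tested) and an absolute log2FC over 0.6. Positions are those of hg19, the build of the counts, from first to last exon. In bulk RNA, fewer dividing cells and less RNA per cell cannot be told apart. CPM are shares of a library, so a fall in RNA common to most genes would not show in them. The paper reports a drop in labelled nuclear RNA under ICM. Higher, lower and close to control are therefore relative to the other genes of a library, and RNA output per cell was not tested. The comparisons of 3 and of 6 days share the same control libraries and are set side by side.

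After 3 days of ICM, 36 of the 44 genes were lower than in control and 0 were higher. Of all 15692 genes tested, 13.2% were lower and 8.85% higher. The median log2FC of the 44 was −2.30, beside 0.01 over all genes tested. DESeq2 called 37 lower and 0 higher, and at an unadjusted p under 0.05 edgeR gave 39 lower and 1 higher. At that threshold 3277 of all 15692 genes tested were lower and 2993 higher. After 6 days, 34 were lower and 1 was higher, against 17.2% and 13.3% of all genes tested, with a median log2FC of −2.30. Every gene lower after 6 days was also lower after 3 days. Summed over the 44 genes, the libraries held 2293 and 2317 CPM in control, 529.7 and 544 CPM after 3 days, 559 and 590.2 CPM after 6 days and 1522 and 1604 CPM in MetaICM. All ICM libraries lay below MetaICM, and MetaICM below control. Counted by libraries alone, 41 of the 44 genes had both 3-day libraries below both controls, where 31.8% of genes tested did, and 1 had both above, where 33.7% did. After 6 days this was so for 39 genes below (36.1% of genes tested) and 2 above (36.6%).

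**Figure D2:**
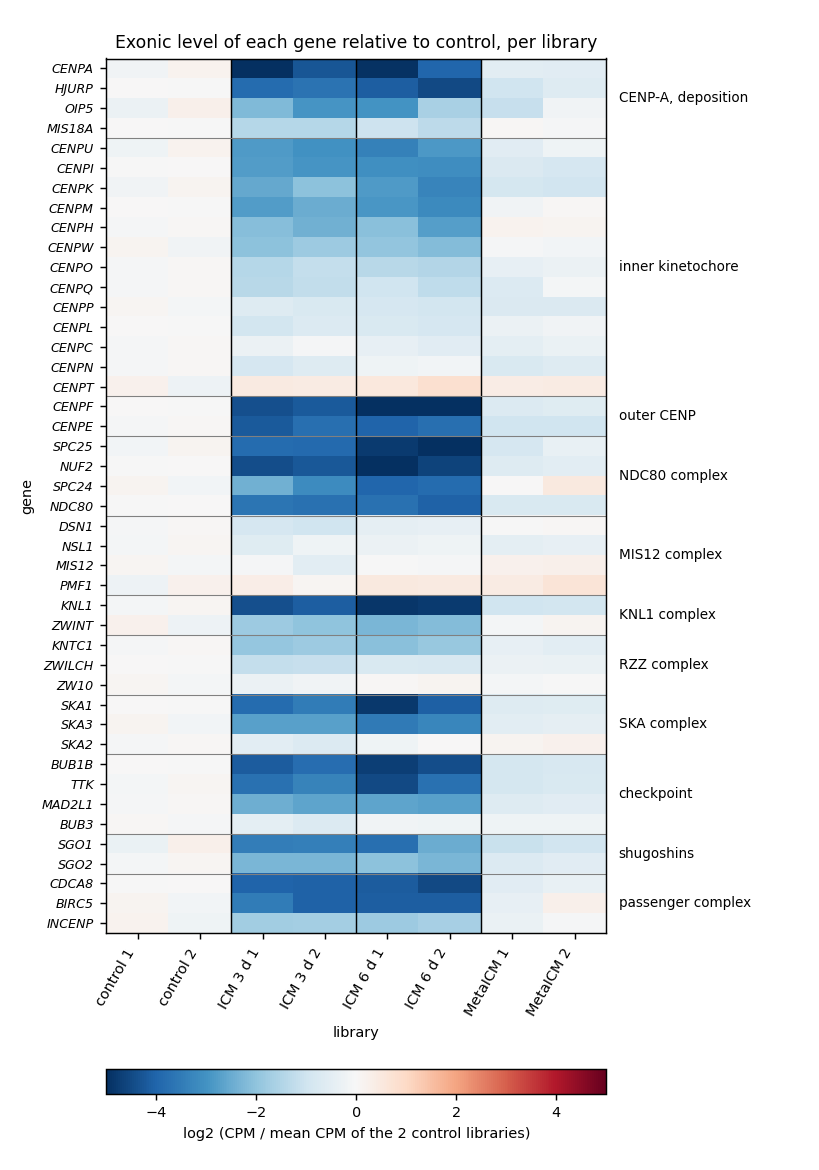
Level of each of the 44 genes (rows, grouped by role) in each of the 8 libraries (columns), as log2 of CPM over the mean CPM of the 2 control libraries; blue is below and red above the control mean, and the colour scale runs from −5 to 5. Most rows are dark blue in the 4 ICM libraries and pale in MetaICM, while CENPT, PMF1, MIS12, ZW10 and BUB3 stay near white or light red.

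All 4 genes of CENP-A and its deposition were lower at both time points, with no adjusted p above 0.00264 after 3 days and 0.00505 after 6 days in edgeR's test. CENPA encodes the centromeric histone H3 variant and lies at chr2:27008883-27017455, plus strand. It stood at 5.83 and 7.37 CPM in control, 0.184 and 0.337 CPM after 3 days, 0.215 and 0.425 CPM after 6 days and 4.56 and 4.43 CPM in MetaICM. The 4 treated libraries held under 0.5 CPM, far below all others. Those values rest on only 4 and 5 counts after 3 days and on 4 and 8 counts after 6 days. The log2FC was −4.69 ± 0.40 after 3 days (adjusted p = 3.65e-06) and −4.33 ± 0.37 after 6 days (adjusted p = 8.97e-06). With a library left out it ran from −5.09 to −4.27 after 3 days and from −4.88 to −3.92 after 6 days. HJURP, the chaperone that loads CENP-A onto centromeres (chr2:234745347-234763212, minus strand), was at 49.9 and 48.3 CPM in control, 3.40 and 3.85 CPM after 3 days, 2.85 and 2.18 CPM after 6 days and 24.7 and 31.7 CPM in MetaICM. Its log2FC was −3.77 ± 0.17 and −4.29 ± 0.18, and no treated library came near a control library. OIP5 (MIS18 beta) and MIS18A form the complex that primes centromeres for loading. OIP5 was scarce, at 1.73 and 2.49 CPM in control, 0.460 and 0.270 CPM after 3 days, 0.269 and 0.691 CPM after 6 days and 0.941 and 1.87 CPM in MetaICM. The antisense gene OIP5-AS1 shares 5.34% of its exon bases, and pairs on those bases were not assigned. MIS18A was at 4.76 and 4.64 CPM in control, 1.75 and 1.75 CPM after 3 days, 2.31 and 1.91 CPM after 6 days and 4.95 and 4.47 CPM in MetaICM. Their log2FC was −2.43 ± 0.47 and −2.09 ± 0.47 for OIP5 and −1.42 ± 0.28 and −1.16 ± 0.25 for MIS18A after 3 and 6 days, smaller in size than for the histone and its chaperone, though the difference between genes was not tested. The calls after 6 days were lost for OIP5 without 6-day replicate 1 (log2FC −1.58) and for MIS18A without 6-day replicate 2 (−1.02).

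In MetaICM all 4 were higher than after 6 days of ICM, by a log2FC of 3.78 ± 0.34 for CENPA, 3.49 ± 0.17 for HJURP, 1.56 ± 0.46 for OIP5 and 1.15 ± 0.22 for MIS18A. The OIP5 call did not hold without 6-day replicate 1 (1.03), without MetaICM replicate 2 (0.96) or in DESeq2 (1.55).

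Among the 13 genes of the inner kinetochore network, 11 were lower after 3 days and 10 after 6 days, and 1 was higher after 6 days. No adjusted p of the lower genes was above 0.0235 after 3 days or 0.00452 after 6 days. CENPI, CENPH, CENPK and CENPM build a single complex within it. CENPI (chrX:100353171-100418662, plus strand) was at 48.3 and 50.04 CPM in control, 7.18 and 6.34 CPM after 3 days, 5.91 and 5.69 CPM after 6 days and 29.9 and 27.2 CPM in MetaICM. CENPK was at 17.4 and 21.8 CPM in control, 3.31 and 4.72 CPM after 3 days, 2.74 and 1.97 CPM after 6 days and 10.7 and 9.99 CPM in MetaICM. Treated and control libraries of both genes were separated by a wide gap. The log2FC after 3 and 6 days was −2.86 ± 0.16 and −3.09 ± 0.15 for CENPI and −2.30 ± 0.23 and −3.05 ± 0.22 for CENPK. CENPM was at 4.94 and 4.72 CPM in control, 0.690 and 0.877 CPM after 3 days, 0.645 and 0.532 CPM after 6 days and 4.26 and 5.08 CPM in MetaICM. CENPH was at 3.09 and 3.31 CPM in control, 0.736 and 0.607 CPM after 3 days, 0.752 and 0.478 CPM after 6 days and 3.62 and 3.56 CPM in MetaICM. Both were already low in control and stayed below 1 CPM in all 4 ICM libraries, while their MetaICM libraries lay at or near the control level. The log2FC was −2.64 ± 0.33 and −3.03 ± 0.31 for CENPM and −2.22 ± 0.36 and −2.37 ± 0.35 for CENPH.

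CENPU, CENPO, CENPP and CENPQ belong to a second complex, of which CENPU docks a mitotic kinase. CENPU was at 11.5 and 15.2 CPM in control, 1.89 and 1.62 CPM after 3 days, 1.29 and 1.81 CPM after 6 days and 8.97 and 11.6 CPM in MetaICM. CENPO was at 26.7 and 29.3 CPM in control, 10.4 and 12.3 CPM after 3 days, 10.6 and 10.05 CPM after 6 days and 20.9 and 22.6 CPM in MetaICM. CENPQ was at 4.997 and 5.39 CPM in control, 1.98 and 2.23 CPM after 3 days, 2.63 and 2.13 CPM after 6 days and 3.22 and 4.87 CPM in MetaICM. All treated libraries of the 3 genes were below both control libraries. The log2FC was −2.91 ± 0.26 and −3.10 ± 0.26 for CENPU, −1.31 ± 0.17 and −1.44 ± 0.15 for CENPO and −1.31 ± 0.27 and −1.12 ± 0.25 for CENPQ. Exon bases shared with neighbouring genes amounted to 23.7% in CENPU (PRIMPOL) and 28.6% in CENPO (ADCY3 and PTRHD1). CENPQ lost its 6-day call without 6-day replicate 2 (log2FC −0.97). CENPP had log2FC of −0.71 ± 0.21 and −0.88 ± 0.19, at between 5.53 and 6.53 CPM in treated and 9.61 and 11.01 CPM in control libraries, and 60.7% of its exon bases overlap other genes. Its 3-day call did not survive the loss of either 3-day library (log2FC −0.64 and −0.77) or of control replicate 1 (−0.60).

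CENPL and CENPN form the pair that contacts the CENP-A nucleosome. CENPN was at 19.8 and 21.8 CPM in control, 11.8 and 13.4 CPM after 3 days, 17.7 and 18.7 CPM after 6 days and 12.3 and 13.2 CPM in MetaICM. It was below control after 3 days and in MetaICM, and close to the control level after 6 days. Its log2FC was −0.73 ± 0.17 after 3 days (adjusted p = 0.00657), −0.19 ± 0.14 after 6 days (adjusted p = 0.307) and 0.54 ± 0.14 between the 2 time points (adjusted p = 0.00847, short of the fold cutoff). Without 3-day replicate 1 the first call was lost (−0.65), and without 3-day replicate 2 the last one passed (0.62). CENPL ranged from 6.58 to 7.62 CPM in treated and 12.3 to 12.6 CPM in control libraries, with log2FC of −0.81 ± 0.20 and −0.81 ± 0.17, the first of which was not called without 3-day replicate 1 (−0.72).

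CENPC, CENPT and CENPW link the nucleosome to the outer kinetochore. CENPC, the backbone of the inner network (chr4:68334480-68411221, minus strand), was at 43.3 and 46.8 CPM in control, 36.8 and 43.04 CPM after 3 days, 34.2 and 30.5 CPM after 6 days and 32.2 and 35.4 CPM in MetaICM. One 3-day library nearly reached the control range, no call was made at either time point, and the log2FC was −0.18 ± 0.14 and −0.48 ± 0.13. The 6-day value missed only the fold cutoff (edgeR adjusted p = 0.0125), as did MetaICM against control (−0.41 ± 0.12, adjusted p = 0.0306). In both conditions the libraries lay below both controls. CENPT recruits NDC80 along a route of its own and lies at chr16:67862060-67881596, minus strand. It was at 73.4 and 53.6 CPM in control, 87.2 and 83.5 CPM after 3 days, 92.1 and 112 CPM after 6 days and 81.9 and 84.1 CPM in MetaICM. All ICM and MetaICM libraries stood above both controls, which themselves lay further apart than those of CENPC. As a share of the library, CENPT was the single gene of the 44 called higher after 6 days. Its log2FC was 0.68 ± 0.16 (edgeR adjusted p = 0.00637), and it was not called after 3 days (0.42 ± 0.15, adjusted p = 0.0596). The 6-day call was lost without 6-day replicate 2 (log2FC 0.54) and without control replicate 2 (0.47), while the 3-day value passed without control replicate 1 (0.67). Its partner CENPW, which joins CENPT in a histone-like pair, went the other way. CENPW was at 5.83 and 4.72 CPM in control, 1.29 and 1.48 CPM after 3 days, 1.34 and 1.17 CPM after 6 days and 5.05 and 4.82 CPM in MetaICM, and every ICM library was far below both controls, with log2FC of −1.94 ± 0.30 and −2.08 ± 0.28.

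In MetaICM, 8 of the 13 were higher than after 6 days of ICM. The log2FC over 6 days was 2.98 ± 0.30 for CENPM, 2.73 ± 0.22 for CENPU, 2.53 ± 0.31 for CENPH, 2.30 ± 0.12 for CENPI, 2.14 ± 0.19 for CENPK, 1.97 ± 0.24 for CENPW, 1.08 ± 0.11 for CENPO and 0.77 ± 0.25 for CENPQ. The last of these was lost in DESeq2 (0.76), after thinning (0.60) and without MetaICM replicate 2 (0.44). CENPC, CENPL, CENPN, CENPP and CENPT were not called.

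CENPE and CENPF were both lower at both time points. These large coiled-coil proteins sit on the outermost layer of the kinetochore, and CENPE is a kinesin motor that carries chromosomes to the spindle equator. CENPE (chr4:104026968-104119500, minus strand) was at 304 and 324 CPM in control, 17.2 and 22.8 CPM after 3 days, 19.6 and 22.8 CPM after 6 days and 156 and 157 CPM in MetaICM. CENPF (chr1:214776538-214837914, plus strand) was at 524 and 513 CPM in control, 24.8 and 27.9 CPM after 3 days, 14.4 and 16.1 CPM after 6 days and 319 and 341 CPM in MetaICM. Per kilobase of exon they were the highest of the 44 in control, at 50.4 CPM per kb for CENPF and 36.7 for CENPE, and at 6 days they had dropped to ranks 19 and 15. CENPE had log2FC of −3.98 ± 0.16 (adjusted p = 1.42e-08) and −3.89 ± 0.13 (adjusted p = 3.31e-08). CENPF went from −4.30 ± 0.14 to −5.09 ± 0.13, the largest fall of any of the 44 after 6 days, and both 6-day libraries were below both 3-day libraries. That difference between time points was itself called, at −0.79 ± 0.13 (edgeR adjusted p = 1.74e-04). MetaICM exceeded 6 days by 4.44 ± 0.09 for CENPF and 2.89 ± 0.09 for CENPE.

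The 4 subunits of the NDC80 complex form the rod that binds the microtubule, and all 4 were lower at both time points, with no adjusted p above 2.46e-05 after 3 days or 4.39e-06 after 6 days. NDC80 (chr18:2571556-2616634, plus strand) and NUF2 (chr1:163291744-163325549, plus strand) make up the end that touches the microtubule. NDC80 was at 36.9 and 38.1 CPM in control, 2.99 and 2.83 CPM after 3 days, 2.85 and 2.29 CPM after 6 days and 22.4 and 21.9 CPM in MetaICM. NUF2 was at 29.03 and 29.2 CPM in control, 1.33 and 1.55 CPM after 3 days, 0.860 and 1.17 CPM after 6 days and 18.5 and 20.3 CPM in MetaICM. For both, the 4 treated libraries were below 3 CPM and the 4 control and MetaICM libraries above 18 CPM. The log2FC after 3 and 6 days was −3.68 ± 0.18 and −3.87 ± 0.18 for NDC80 and −4.34 ± 0.21 and −4.83 ± 0.21 for NUF2. SPC24 (chr19:11256169-11266488, minus strand) and SPC25 (chr2:169727401-169746940, minus strand) form the opposite end, which plugs into MIS12 and CENP-T. SPC24 was at 11.01 and 9.03 CPM in control, 1.89 and 1.15 CPM after 3 days, 0.645 and 0.691 CPM after 6 days and 10.3 and 13.99 CPM in MetaICM. SPC25 was at 5.41 and 6.46 CPM in control, 0.414 and 0.405 CPM after 3 days, 0.215 and 0.159 CPM after 6 days and 3.32 and 4.60 CPM in MetaICM. All ICM libraries were again below all others, with a log2FC of −2.68 ± 0.29 after 3 days and −3.90 ± 0.27 after 6 days for SPC24. For SPC25 it was −3.83 ± 0.36 and −4.93 ± 0.38.

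The difference between 6 and 3 days was called for SPC24, at −1.22 ± 0.41 (edgeR adjusted p = 0.0416), with both 6-day libraries below both 3-day ones. It did not hold without 3-day replicate 1 (log2FC −0.77), without 6-day replicate 1 (−1.15) or without 6-day replicate 2 (−1.27), nor at an adjusted p of 0.01. DESeq2 gave SPC24 no adjusted p here (unadjusted p = 0.0566). SPC25 was too scarce to be tested between the time points. In MetaICM all 4 subunits were higher than after 6 days, by 3.11 ± 0.15 for NDC80, 4.25 ± 0.19 for NUF2, 4.17 ± 0.25 for SPC24 and 4.37 ± 0.40 for SPC25, and the MetaICM libraries of SPC24 overlapped those of control.

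The MIS12 complex, the hub that joins the inner network to NDC80 and KNL1, had 1 of 4 genes lower after 3 days and 0 after 6 days in edgeR's test. At an unadjusted p under 0.05, 2 were lower after 3 days and 1 after 6 days, and DESeq2 called 1 lower after 3 days and 0 after 6 days. MIS12 (chr17:5389694-5394130, plus strand) was at 14.2 and 12.2 CPM in control, 12.5 and 9.11 CPM after 3 days, 12.9 and 12.8 CPM after 6 days and 15.2 and 15.9 CPM in MetaICM. Its ICM libraries overlapped control and its MetaICM libraries lay just above, and the log2FC was −0.28 ± 0.21 and −0.05 ± 0.16, with the sign of the latter turning without control replicate 1 (0.067). DSN1, whose phosphorylation opens the complex for centromere binding, was at 16.1 and 17.1 CPM in control, 9.20 and 8.37 CPM after 3 days, 12.1 and 12.3 CPM after 6 days and 16.3 and 17.4 CPM in MetaICM. It was below control after 3 days (−0.91 ± 0.18, adjusted p = 0.00261), less so after 6 days (−0.44 ± 0.15, adjusted p = 0.0387, under the fold cutoff), and its MetaICM libraries overlapped control. The step from 3 to 6 days was 0.47 ± 0.15 (adjusted p = 0.0400).

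NSL1 was at 25.1 and 28.3 CPM in control, 17.4 and 23.004 CPM after 3 days, 21.8 and 23.1 CPM after 6 days and 19.1 and 20.3 CPM in MetaICM. PMF1 was at 3.03 and 4.14 CPM in control, 4.46 and 3.85 CPM after 3 days, 5.05 and 4.89 CPM after 6 days and 4.71 and 5.60 CPM in MetaICM. The 3-day libraries of PMF1 overlapped control, and those of NSL1 lay below it. Neither was called at either time point: the log2FC was −0.41 ± 0.17 and −0.25 ± 0.14 for NSL1 and 0.23 ± 0.28 and 0.48 ± 0.24 for PMF1. For PMF1, 48.0% of exon bases lie in the read-through gene PMF1-BGLAP on the same strand, so its counts cover only part of its transcripts, and without control replicate 2 it would have been called higher after 6 days (0.71). In MetaICM none of the 4 was called against control or against 6 days. NSL1 missed only the fold cutoff against control (−0.44 ± 0.13, edgeR adjusted p = 0.0352). The unadjusted p was under 0.05 for 1 lower and 1 higher gene against control and for 2 higher genes against 6 days, and DESeq2 called 0 in both comparisons.

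**Figure D3:**
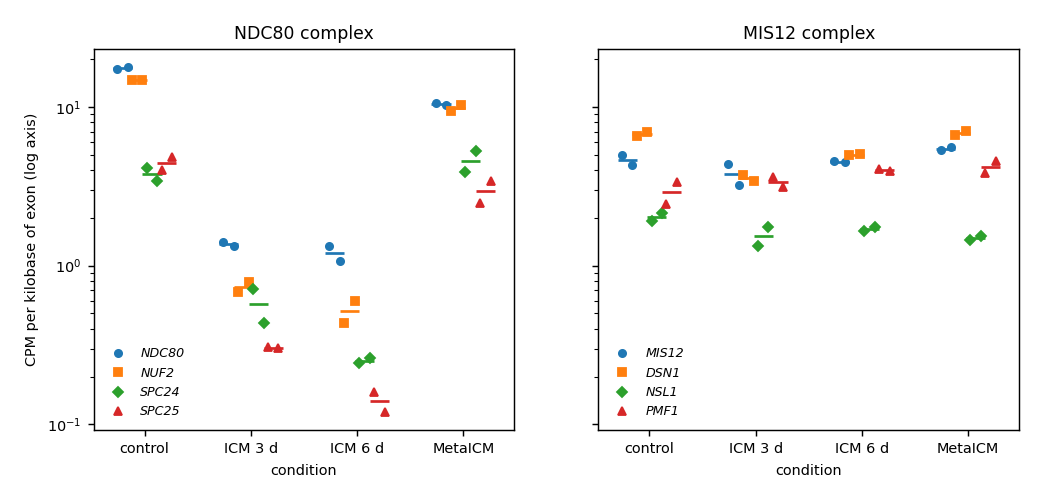
Level of the 4 NDC80 subunits (left) and the 4 MIS12 subunits (right) in each library, in CPM per kilobase of exon on a log axis; points are libraries and short bars the mean of 2. NDC80 and NUF2 drop from 17.6 and 14.8 in control to 1.21 and 0.517 after 6 days, whereas MIS12 and DSN1 go from 4.64 and 6.75 to 4.52 and 4.99.

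KNL1 and ZWINT were both lower at both time points. KNL1 is the scaffold on which checkpoint proteins dock, and ZWINT binds it and brings in the RZZ complex. KNL1 (chr15:40886447-40956539, plus strand) was at 229.9 and 261 CPM in control, 11.6 and 14.03 CPM after 3 days, 8.38 and 8.98 CPM after 6 days and 125 and 130.3 CPM in MetaICM. ZWINT was at 24.4 and 17.98 CPM in control, 6.07 and 5.26 CPM after 3 days, 4.30 and 4.73 CPM after 6 days and 19.8 and 23.6 CPM in MetaICM. Neither gene had an ICM library within the range of control, and the log2FC was −4.27 ± 0.16 and −4.82 ± 0.14 for KNL1 and −1.90 ± 0.21 and −2.24 ± 0.20 for ZWINT. Between 6 and 3 days the log2FC of KNL1 was −0.56 ± 0.16 (edgeR adjusted p = 0.0192), which fell short of the fold cutoff except without 3-day replicate 1 (−0.69) and after thinning (−0.69). In MetaICM they were higher than after 6 days by 3.88 ± 0.09 and 2.26 ± 0.14, and the MetaICM libraries of ZWINT lay within the control range.

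ZW10, ZWILCH and KNTC1 (ROD) form the RZZ complex, a coat that expands around unattached kinetochores and holds dynein there, and 2 of the 3 genes were lower at both time points. KNTC1 (chr12:123011796-123110943, plus strand) was at 164 and 175 CPM in control, 44.2 and 48.8 CPM after 3 days, 40.2 and 46.3 CPM after 6 days and 127 and 119 CPM in MetaICM. Its log2FC was −1.87 ± 0.13 and −1.98 ± 0.12, with no overlap between treated and control libraries. At 6.197 CPM per kb it was still the fourth highest of the 44 after 6 days. ZW10, which also works in Golgi transport in interphase, was at 41.8 and 35.9 CPM in control, 31.9 and 34.7 CPM after 3 days, 40.5 and 42.4 CPM after 6 days and 36.8 and 38.4 CPM in MetaICM. Its libraries overlapped between control and 6 days, it was called at neither time point (−0.23 ± 0.14 and 0.09 ± 0.13), and the sign at 6 days turned without control replicate 2 (−0.011). Between 6 and 3 days its log2FC was 0.32 ± 0.11 (adjusted p = 0.0437), short of the fold cutoff. ZWILCH was between them, at 11.5 to 15.3 CPM in treated and 26.1 to 26.2 CPM in control libraries, with log2FC of −1.18 ± 0.16 and −0.78 ± 0.14, and 8.11% of its exon bases overlap LCTL. KNTC1 alone of the 3 was called higher in MetaICM than after 6 days (1.51 ± 0.08).

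SKA1, SKA2 and SKA3 form the SKA complex, which stabilises the grip of NDC80 on microtubules, and SKA1 and SKA3 were lower at both time points. SKA1 (chr18:47901416-47920538, plus strand) was at 10.7 and 10.7 CPM in control, 0.736 and 0.944 CPM after 3 days, 0.376 and 0.638 CPM after 6 days and 6.94 and 6.99 CPM in MetaICM. SKA3 was at 15.1 and 12.5 CPM in control, 2.12 and 2.09 CPM after 3 days, 1.18 and 1.44 CPM after 6 days and 9.56 and 9.99 CPM in MetaICM. Neither gene had overlapping libraries between treated and control, and their log2FC was −3.69 ± 0.28 and −4.38 ± 0.29 for SKA1 and −2.72 ± 0.24 and −3.40 ± 0.24 for SKA3. SKA2 (chr17:57187218-57232547, minus strand) was at 13.4 and 14.6 CPM in control, 9.75 and 8.84 CPM after 3 days, 12.2 and 14.1 CPM after 6 days and 15.4 and 16.3 CPM in MetaICM. Its log2FC after 3 days was −0.59 ± 0.19 (adjusted p = 0.0322), just short of the fold cutoff and past it without control replicate 1 (−0.64) or after thinning (−0.66). After 6 days it overlapped control, at −0.09 ± 0.16, and the sign turned without 6-day replicate 1 (0.012). The change from 3 to 6 days was 0.49 ± 0.15 (adjusted p = 0.0323). In MetaICM, SKA1 and SKA3 were higher than after 6 days by 3.76 ± 0.28 and 2.90 ± 0.21.

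Of the 4 checkpoint genes, 3 were lower at both time points. TTK (MPS1) is the kinase that starts the signal, MAD2L1 and BUB1B (BUBR1) are parts of the inhibitor that blocks the anaphase-promoting complex, and BUB3 carries BUB proteins to KNL1. BUB1B (chr15:40453210-40513337, plus strand) was at 94.1 and 92.6 CPM in control, 5.29 and 6.61 CPM after 3 days, 3.6000 and 4.36 CPM after 6 days and 50.3 and 54.3 CPM in MetaICM. TTK (chr6:80714322-80752244, plus strand) was at 39.2 and 44.7 CPM in control, 3.13 and 4.12 CPM after 3 days, 1.83 and 3.19 CPM after 6 days and 23.1 and 24.7 CPM in MetaICM. MAD2L1 (chr4:120976778-120988003, minus strand) was at 21.8 and 24.2 CPM in control, 4.28 and 3.71 CPM after 3 days, 3.71 and 3.46 CPM after 6 days and 14.8 and 15.4 CPM in MetaICM. In all 3 the treated libraries were separate from the others by several fold. The log2FC after 3 and 6 days was −3.99 ± 0.16 and −4.55 ± 0.15 for BUB1B, −3.55 ± 0.19 and −4.06 ± 0.22 for TTK, and −2.51 ± 0.20 and −2.68 ± 0.18 for MAD2L1, with no adjusted p above 1.43e-06 after 3 days or 1.27e-06 after 6 days in edgeR's test. In MetaICM they exceeded 6 days by 3.71 ± 0.12, 3.25 ± 0.17 and 2.07 ± 0.15. Reads on 4.60% of the BUB1B exon bases, shared with the read-through gene BUB1B-PAK6, were not assigned.

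BUB3 was at 140.2 and 128 CPM in control, 94.7 and 82.9 CPM after 3 days, 118 and 116 CPM after 6 days and 115 and 115 CPM in MetaICM. It was the most abundant checkpoint gene per kilobase after 6 days (14.9 CPM per kb, rank 2 of 44), and its 3-day libraries lay below all others. The log2FC was −0.60 ± 0.13 after 3 days (adjusted p = 0.00489), just short of the fold cutoff before rounding and past it without 3-day replicate 1 (−0.71), without control replicate 2 (−0.68) and in DESeq2. After 6 days it was −0.20 ± 0.11, and between the time points 0.39 ± 0.09 (adjusted p = 0.00605).

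The shugoshins SGO1, which protects centromeric cohesin until anaphase, and SGO2, which helps place the passenger complex, were lower at both time points. SGO1 was at 6.43 and 9.61 CPM in control, 0.736 and 0.742 CPM after 3 days, 0.591 and 1.44 CPM after 6 days and 3.67 and 4.13 CPM in MetaICM. SGO2 (chr2:201390865-201448819, plus strand) was at 50.7 and 56.9 CPM in control, 11.1 and 10.9 CPM after 3 days, 13.1 and 10.95 CPM after 6 days and 33.1 and 36.8 CPM in MetaICM. Control, MetaICM and treated libraries formed separate levels in both genes. The log2FC was −3.42 ± 0.34 and −2.96 ± 0.37 for SGO1 and −2.29 ± 0.15 and −2.17 ± 0.15 for SGO2, and MetaICM exceeded 6 days by 1.94 ± 0.31 and 1.54 ± 0.11. The antisense gene SGO1-AS1 covers 12.4% of SGO1 exon bases.

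The chromosomal passenger complex was lower in all 3 of its listed genes. INCENP is its scaffold, and survivin (BIRC5) and borealin (CDCA8) direct it to the centromere. CDCA8 (chr1:38158188-38175391, plus strand) was at 25.3 and 26.3 CPM in control, 1.61 and 1.55 CPM after 3 days, 1.45 and 1.12 CPM after 6 days and 17.2 and 19.98 CPM in MetaICM. BIRC5 (chr17:76210334-76221716, plus strand) was at 18.5 and 15.2 CPM in control, 1.47 and 1.01 CPM after 3 days, 0.967 and 0.957 CPM after 6 days and 12.5 and 20.2 CPM in MetaICM. INCENP (chr11:61891483-61920638, plus strand) was at 56.99 and 43.8 CPM in control, 15.04 and 15.6 CPM after 3 days, 14.1 and 16.1 CPM after 6 days and 40.4 and 48.3 CPM in MetaICM. The ICM libraries of all 3 were below every control and MetaICM library, and INCENP was at 29.99% of control after 6 days where CDCA8 was at 4.98%. The log2FC was −4.02 ± 0.21 and −4.32 ± 0.20 for CDCA8, −3.72 ± 0.26 and −4.13 ± 0.24 for BIRC5 and −1.73 ± 0.16 and −1.74 ± 0.16 for INCENP, with no adjusted p above 1.46e-05 after 6 days. In MetaICM none of the 3 was called against control by edgeR or DESeq2, the nearest being CDCA8 at −0.47 ± 0.14 (adjusted p = 0.0290), and against 6 days they were higher by 3.85 ± 0.19, 4.09 ± 0.26 and 1.55 ± 0.11. The BIRC5 and INCENP libraries of MetaICM overlapped those of control.

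**Figure D4:**
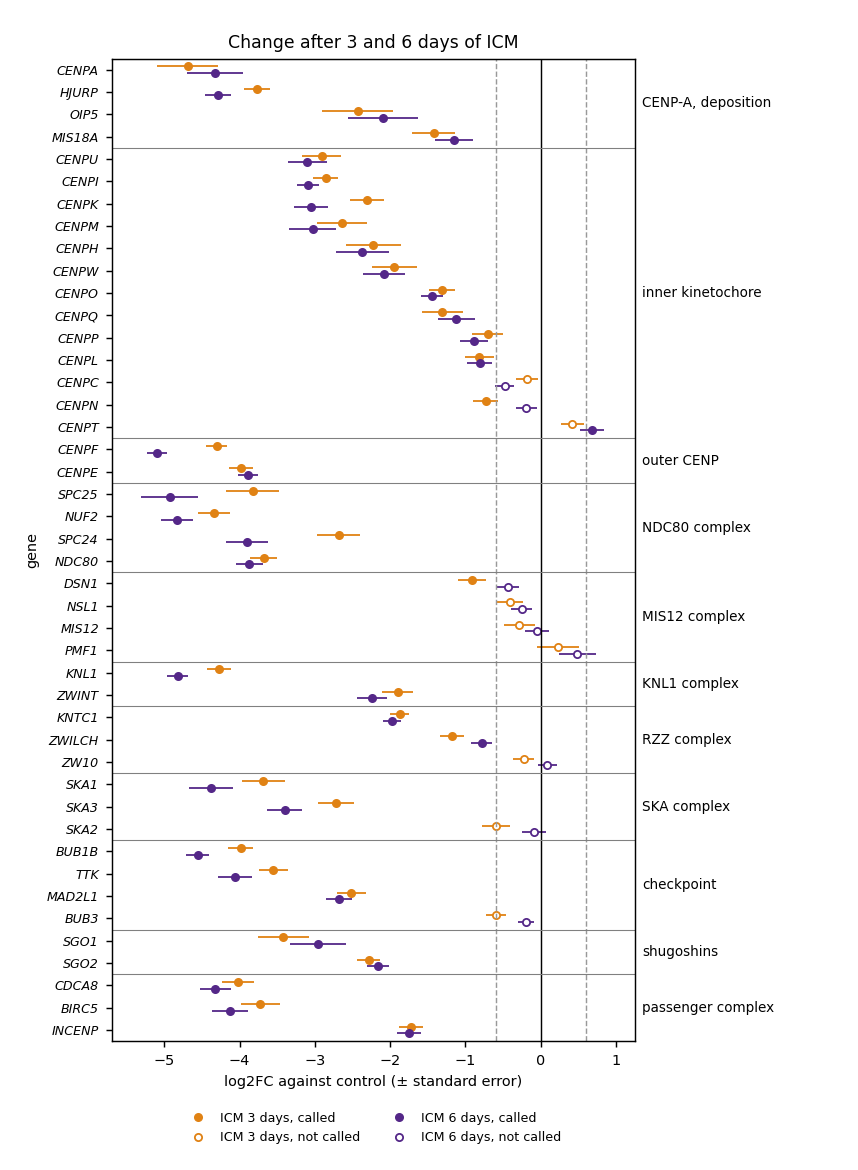
log2FC against control (horizontal axis, points with standard error bars) of each of the 44 genes (vertical axis, by role) after 3 days (orange) and 6 days (purple) of ICM; filled points were called, open points were not, and dashed lines mark ±0.6. NDC80 subunits lie between −4.93 and −2.68, while the MIS12 subunits lie between −0.91 and 0.48, and CENPT is the one filled point to the right of 0.

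Across the groups, 34 genes were lower at both time points, CENPN and DSN1 were lower at 3 days only by the call rule, and 8 were called lower at neither: CENPC, CENPT, MIS12, NSL1, PMF1, ZW10, SKA2 and BUB3. The 34 stood at a median of 15.2% of their control level after 3 days (3.95% to 61.5%) and 11.9% after 6 days (2.94% to 58.2%). Since they were chosen by these comparisons, the shares are descriptive. Per kilobase, CENPT, BUB3, ZW10, KNTC1 and DSN1 were the 5 highest after 6 days, in place of CENPF, CENPE, KNL1, BUB1B and CENPT in control.

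Between 6 and 3 days of ICM few of the 41 genes tested moved. CENPF and SPC24 were lower and 0 were higher, where 4.54% of all 15845 genes tested were lower and 3.53% higher, and the median log2FC of the 41 was −0.15. Both 6-day libraries were below both 3-day libraries in 17 genes (29.5% of genes tested) and above in 10 (29.9%). At an unadjusted p under 0.05, 7 were lower and 7 higher, beside 2598 and 2515 of all 15845 genes tested. DESeq2 called 1 lower, CENPF, and 0 higher. The count of lower genes was 4 without 3-day replicate 1 and 1 without either 6-day library. CENPA, OIP5 and SPC25 had too few counts to be tested. Short of the fold cutoff, CENPN, DSN1, ZW10, SKA2 and BUB3 passed the adjusted p in the higher direction and KNL1 in the lower. The first 5 stood at 53.0% to 85.7% of control after 3 days and at 73.9% to 107% after 6 days, and of them CENPN and DSN1 were called lower after 3 days.

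MetaICM was compared with control and with 6 days of ICM. Against 6 days, 31 of the 44 genes were higher and 0 lower in edgeR's test, beside 15.7% and 12.0% of all 16036 genes tested. DESeq2 called 29 higher and 0 lower. At an unadjusted p under 0.05, 36 were higher and 2 lower, beside 4797 and 4569 of all genes tested, and the median log2FC was 2.02. Both MetaICM libraries were above both 6-day libraries in 37 genes (38.4% of genes tested) and below in 5 (37.8%). All 31 belong to the 34 genes lower at both time points, of which CENPL, CENPP and ZWILCH were not called. Against control, 15 genes were lower and 0 higher, beside 8.99% and 7.41% of all 15904 genes tested, with a median log2FC of −0.45. Both libraries were below both controls in 28 genes (33.6% of genes tested) and above in 5 (34.7%). DESeq2 called 14 lower and 0 higher, and 25 were lower and 2 higher at an unadjusted p under 0.05. Of all genes tested, 3240 were lower and 3162 higher at that threshold. The 15 were HJURP, CENPI, CENPK, CENPN, CENPP, CENPE, CENPF, NDC80, KNL1, SKA1, BUB1B, MAD2L1, TTK, SGO1 and SGO2. Their log2FC ran from −1.02 ± 0.24 for SGO1 to −0.61 ± 0.14 for MAD2L1. This count rests on both MetaICM libraries, since 7 genes were called without MetaICM replicate 1 and 8 without MetaICM replicate 2. With library totals, or with every gene that had a count, 12 were called, without SKA1, MAD2L1 and SGO2, whose log2FC then lay between −0.60 and −0.58. SKA1 was the gene not called in DESeq2 (adjusted p = 0.0560), and at an adjusted p of 0.01 CENPP, SKA1, MAD2L1 and SGO1 were not called, which left 11.

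The 34 genes lower at both time points were at a median of 67.4% of control in MetaICM (48.6% to 121%). Of them 14 were called lower than control in MetaICM and 20 were not, which does not show that those 20 were equal to control. Among the 20, NUF2 (−0.59 ± 0.13), SKA3 (−0.51 ± 0.16), CDCA8 (−0.47 ± 0.14) and KNTC1 (−0.47 ± 0.11) missed only the fold cutoff. Their edgeR adjusted p ran from 0.00906 for NUF2 to 0.0426 for SKA3, and their MetaICM libraries lay below both controls. SPC24 (0.27 ± 0.19), CENPH (0.16 ± 0.23), ZWINT (0.02 ± 0.17), MIS18A (−0.0017 ± 0.21), CENPM (−0.05 ± 0.21) and BIRC5 (−0.05 ± 0.21) were those with a log2FC against control nearest to 0 or above it. By contrast CENPN was lower than control in MetaICM (−0.71 ± 0.14, adjusted p = 0.00627) and not called after 6 days, the direct comparison of the 2 being −0.52 ± 0.11 (adjusted p = 6.23e-04, short of the fold cutoff), and it lost that call without either MetaICM library (−0.64 and −0.75).

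**Figure D5:**
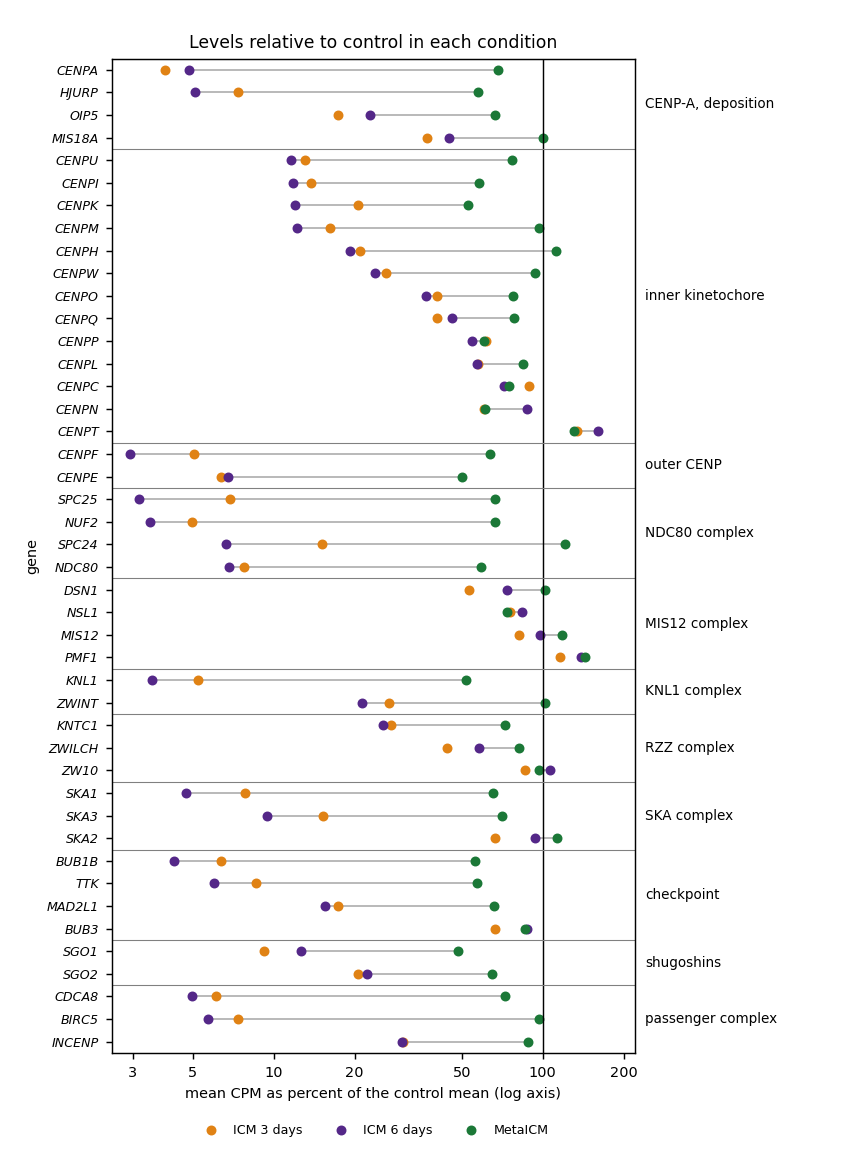
Mean CPM of each gene as a percent of its control mean (horizontal log axis; vertical line at 100%) after 3 days (orange), 6 days (purple) and in MetaICM (green), with grey lines joining 6 days to MetaICM. CENPF stands at 2.94% after 6 days and 63.6% in MetaICM, and the 34 genes lower at both time points have medians of 15.2%, 11.9% and 67.4% in the 3 conditions.

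A further 21 genes of the kinetochore and checkpoint that are not among the 44 were listed, and 20 could be tested. After 3 and after 6 days 12 of the 20 were lower and 0 higher in edgeR's test, with medians of −1.40 and −1.45. Of all genes tested, 13.2% were lower and 8.85% higher after 3 days, and 17.2% and 13.3% after 6 days. At an unadjusted p under 0.05 in edgeR's test, 12 of the 20 were lower at each time, and 1 was higher after 3 days and 3 after 6 days. At that threshold 3277 of all 15692 genes tested were lower and 2993 higher after 3 days. After 6 days 4141 of 15950 were lower and 3960 higher. DESeq2 called 12 of the 20 lower and 0 higher at each time. The lowest after 6 days were AURKB (−4.85), the kinase of the passenger complex, and BUB1 (−4.47), the checkpoint kinase docked on KNL1. The highest was CLASP2 (0.40), a microtubule-binding protein also used in interphase, which was not called. In MetaICM 13 were higher and 1 lower than after 6 days, 65.0% and 5.0% beside 15.7% and 12.0% of all genes tested.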

How the data were processed

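Factory RNA-Seq libraries from IMR90 (control, 3 days of ICM, 6 days of ICM and MetaICM, 2 each) were analysed from the counts the authors deposited. Per the file headers and the submitters' processing notes, paired reads were aligned to hg19 (GRCh37) with STAR (version 2.6.0c) and read pairs on exons counted per RefSeq gene with featureCounts (version 1.6.3). Pairs were counted without regard to strand and with both ends mapped, from primary alignments, and pairs on exons of several genes were not assigned, which lowers counts of overlapping genes. The deposited counts are raw and hold no intronic reads. Counts per library set the precision, and genes with few counts have larger standard errors.

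Each comparison of 2 conditions was fitted on its own 4 libraries with edgeR (version 4.0.16, limma 3.58.1, R 4.3.3), TMM factors, filterByExpr at a count minimum of 10, the quasi-likelihood test and Benjamini-Hochberg adjustment over all genes tested. The cutoffs (adjusted p under 0.05, absolute log2FC over 0.6) are those in the study's results. Its methods give an FDR under 0.01, which was run as an alternative. CPM use TMM factors over all 8 libraries. Levels per kilobase use the exon length in the count tables. An exact permutation test of 2 against 2 libraries cannot go below p = 0.333, so sums and shares carry no test. Fits were tried on simulated data with known changes, set only in well counted genes and with a fixed spread. Those runs do not cover the scarce genes. The members, groups and other lists were chosen with earlier results of these data known. Values in every library are given for the genes with the lowest and highest log2FC after 6 days in each group, those not lower at 3 or 6 days, and those called between 6 and 3 days or between MetaICM and 6 days; of the other lists at most 3 genes with the lowest or highest log2FC after 6 days are named. Alternatives were DESeq2 (version 1.42.0), its size factors, upper-quartile factors, library totals, other count filters, a joint fit of all 8 libraries, a block for replicate number, thinning to 12095123 counts, an adjusted p of 0.01 and leaving out each library. Tables and figures were made with Python 3.11.15, numpy 2.4.6, pandas 2.3.3 and matplotlib 3.10.9.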

Additional observations from a re-analysis of the deposited data

Results flagged for a closer look

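By both cutoffs, on adjusted p and on fold, the effect of ICM differed between the time points for 2 genes, as tested directly by comparing the 6-day with the 3-day libraries in edgeR's quasi-likelihood test. These are 4.88% of the 41 genes tested and both were lower, beside 4.54% lower over all genes tested. CENPF, already reduced after 3 days, was lower still after 6 days, by a log2FC of −0.79, and both 6-day libraries lay below both 3-day libraries. SPC24 was lower by −1.22, which did not pass without 3-day replicate 1 or without either 6-day library, and DESeq2 called CENPF and gave no adjusted p for SPC24 (unadjusted p = 0.0566). Another 6 genes passed an adjusted p of 0.05 in the same edgeR test with changes below the fold cutoff: CENPN, DSN1, ZW10, SKA2 and BUB3 higher and KNL1 lower. Of these, BUB3 (0.00605), CENPN (0.00847), KNL1 (0.0192), SKA2 (0.0323) and DSN1 (0.0400) had smaller adjusted p-values than SPC24 (0.0416), and ZW10 (0.0437) a larger one.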

How the results depend on the processing

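With 2 libraries per condition, each left-out library leaves a single one whose spread is taken from the other condition. Without one library, the number of the 44 genes lower after 3 days ran from 34 to 37 and higher from 0 to 1, with a median log2FC between −2.41 and −2.19. After 6 days 32 to 34 were lower and 0 to 1 higher (median −2.46 to −2.37), and between 6 and 3 days 1 to 4 were lower and 0 to 1 higher (median −0.16 to −0.10). For MetaICM against control 7 to 17 were lower and 0 to 1 higher (median −0.52 to −0.33), and against 6 days 29 to 32 were higher and 0 lower (median 2.02 to 2.14). The signs of 3 uncalled values after 6 days turned: MIS12 (−0.15 to 0.067, positive without control replicate 1), SKA2 (−0.20 to 0.012, positive without 6-day replicate 1) and ZW10 (−0.011 to 0.20, negative without control replicate 2). The median after 3 days moved to −2.22 with library totals and to −2.12 with at least 10 counts in every library, which removes scarce genes, and the median after 6 days to −2.17 with that filter and to −2.45 after thinning. Between 6 and 3 days, 1 gene was lower in DESeq2, 4 after thinning and 1 at an adjusted p of 0.01, and 1 gene was lower in MetaICM than after 6 days after thinning. The cause of these shifts was not tested. Over the 217 results of a gene in a comparison and all alternatives other than left-out libraries, 2116 of 2151 values kept their call or lack of one, 10 gained a call, 17 lost one and 8 had no adjusted p in DESeq2. With left-out libraries 820 of 868 kept it, 15 gained and 33 lost one. Signs turned in 10 and 31 of these values, and none of the turned values was called in the reported fit. Replicates share only a number: deviations of same-numbered libraries correlated at r = −0.04 to 0.20 across genes. With a block for replicate number 36, 34, 3, 15 and 0 genes were lower in the 5 comparisons and 0, 1, 0, 0 and 31 higher.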

Other observations

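Genes of the machinery around the kinetochore were counted in the same fits, from lists written with earlier results known. Of 21 genes of the DREAM complex, the E2F family and FOXM1, 11 were lower and 0 higher after 3 days of ICM, and 11 were lower and 1 higher after 6 days, with median log2FC of −0.75 and −0.61. The 52.4% lower at each time stand beside 13.2% and 17.2% of all genes tested, and the 4.76% higher after 6 days beside 13.3%. After 3 days 1 was higher at an unadjusted p under 0.05, and DESeq2 called 10 lower and 0 higher. The lowest after 6 days were E2F8 (−4.76) and E2F2 (−4.62), members of the E2F family that are themselves transcribed in cycling cells. LIN37, a subunit of the MuvB core, was the highest (0.71). In MetaICM 10 of the 21 were higher than after 6 days and 0 lower in edgeR's quasi-likelihood test and in DESeq2. The 47.6% higher stand beside 15.7% of all genes tested, of which 12.0% were lower. At an unadjusted p under 0.05, 4 of the 21 were lower.

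The anaphase-promoting complex is the ubiquitin ligase that the checkpoint holds in check, and separase is the protease it sets free. Of 19 genes of this list 4 were lower and 0 higher after 3 days, and 4 lower and 2 higher after 6 days, with median log2FC of −0.07 and −0.08. The 21.1% lower at each time stand beside 13.2% and 17.2% of all genes tested, and the 10.5% higher after 6 days beside 13.3%. DESeq2 gave the same counts, and 0 were higher after 3 days at an unadjusted p under 0.05. UBE2C, the ubiquitin-conjugating enzyme that works with the ligase, was lowest (−4.32 after 6 days), followed by separase, ESPL1 (−3.19). CDC26, a small subunit of the ligase, was highest (1.01). In MetaICM 5 were higher and 1 lower than after 6 days, 26.3% and 5.26% beside 15.7% and 12.0% of all genes tested. For that comparison DESeq2 called 4 higher and 1 lower.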
